A study of Mus musculus with 42 samples.

Results

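The early response of macrophages labelled MS4A4A KO to dexamethasone (Dex, a synthetic glucocorticoid) was taken from 6 of the 42 RNA sequencing libraries of the series. These were the 3 libraries titled Dex, KO, 2h and the 3 titled vehicle, KO, 2h, and every gene of the deposited table was described. The cells were mouse macrophages grown from bone marrow with M-CSF, detached, plated again and treated on the next day. The Dex group received 1 µM Dex for 2 h and the vehicle group received none for the same time. Both groups carried the same genotype, and the labels give neither the strain nor which stretch of Ms4a4a was deleted. WT libraries at 2 h, KO libraries at 8 h and untreated KO libraries, with 3 libraries in each group, were used for reference. The labels do not say whether the numbered replicates came from separate mice or cultures. The p-values thus reflect only how far libraries varied within groups, over all 42 libraries, which may be technical variation.

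Glucocorticoids enter the cell and bind the glucocorticoid receptor, which leaves its chaperones, moves to the nucleus and acts as a transcription factor. It raises genes such as Fkbp5, Tsc22d3 and Per1 through palindromic DNA elements, and it restrains the inflammatory factors AP-1 and NF-kB. In macrophages it is known for lowering cytokines and chemokines and for favouring a scavenging phenotype. MS4A4A is a membrane-spanning protein of macrophages whose level is known to rise with Dex.

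The 6 libraries held 21442736 to 32484924 counts over 11160 genes, and all 42 held 10140211 to 33528397. Mitochondrially encoded transcripts took 0.579% to 0.795% of counts. All 10 macrophage markers examined were present, the highest being Lyz2 at up to 20400 CPM (counts scaled to a common library size). Markers of other cells were few. Of the T cell, B cell and dendritic cell markers, 1 of 6 (Cd4), 1 of 6 (Cd79b) and 2 of 6 were in the table. Of the fibroblast or stroma, endothelium and osteoclast markers, 4 of 7, 2 of 5 and 3 of 6 were in it. None of the 5 NK cell, 6 mast cell or basophil or 6 erythroid markers was in it, and such genes were not analysed here. The 4 of 7 neutrophil markers measured summed to 19.2, 31.1 and 61.0 CPM in vehicle replicates 1, 2 and 3 and to 18.6, 40.9 and 58.8 CPM in the Dex replicates of the same numbers, so they moved with the replicate number and not with Dex. The dendritic cell markers measured, Flt3 and Zbtb46, summed to 0.757, 0.487 and 0.716 CPM in the vehicle replicates and to 0.982, 1.23 and 1.11 CPM with Dex. Their sums did not overlap between the groups, and neither gene was called. The part of neutrophil and dendritic cell RNA in the results was not tested. In bulk libraries, fewer cells of a type and less RNA per cell cannot be told apart. The first principal component of the 6 libraries carried 46.9% of the variance and separated Dex from vehicle. On the second, with 23.7%, Dex replicates 1, 2 and 3 stood at 14.2, 1.58 and -23.3. Vehicle replicates 1, 2 and 3 stood at 19.0, -10.6 and -0.892, so libraries of both groups were spread along it.

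Ms4a4a (chr19:11375523-11392790, GRCm38, plus strand) was still counted in the KO libraries. Vehicle libraries of the KO held 30.8, 37.4 and 35.5 CPM, against 79.2, 85.0 and 90.3 CPM in the WT vehicle libraries. With Dex the KO libraries held 70.5, 79.4 and 66.5 CPM, against 104, 120 and 124 CPM in WT. Every KO library thus lay below every WT library of the same treatment, and within the KO every Dex library lay above every vehicle library. The rise with Dex in the KO was 1.06 ± 0.22 on the log2 scale (adjusted p = 0.000563, edgeR quasi-likelihood test with Benjamini-Hochberg adjustment). Each SE given is from 1 model of all 42 libraries, with 3 libraries a group. Whether the counted reads come from a part of the gene outside the deletion was not tested.

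After 2 h of Dex, 1162 of the 11160 genes tested differed from vehicle at an adjusted p under 0.05, which is called here and is 10.4% of the genes. Of these, 642 were higher (5.75%) and 520 lower (4.66%). A change over 2-fold was reached by 176 of the higher and 75 of the lower genes, while 589 called genes changed by less than 1.5-fold. The median log2 fold change over all genes was -0.0017. In 1130 of the 1162 called genes (97.2%) the 3 Dex and 3 vehicle libraries did not overlap, against 2479 (22.2%) of all genes tested. Fits that left out each of the 6 libraries in turn called from 845 genes (without Dex replicate 1) to 1370 (without Dex replicate 3), and 695 of the 1162 genes were called in all 6 of them. The lists are given with the number of their calls that held in all 6 of these fits. Each list count is to be read beside the 10.4% called over all genes. The number of lower genes ran from 339 (without Dex replicate 1) to 707 (without Dex replicate 3, with 663 higher), and was 336 with the compared groups alone.

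**Figure D1:**
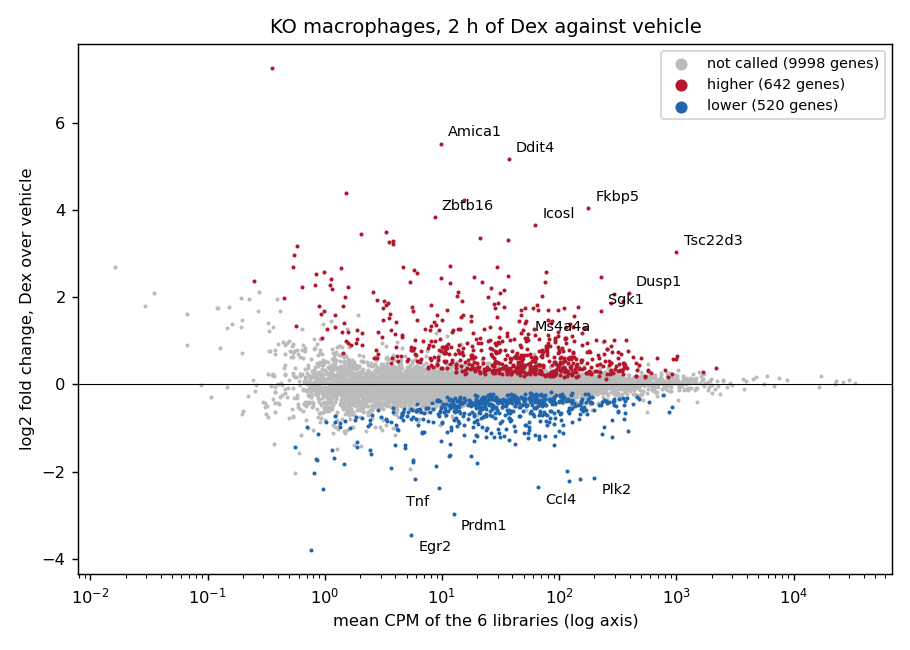
Log2 fold change of Dex over vehicle at 2 h in KO macrophages (vertical axis) against the mean CPM of the 6 libraries (horizontal log axis), 1 point a gene, with called genes in red (higher, 642) and blue (lower, 520). Labelled genes include Amica1, Ddit4 and Fkbp5 above and Egr2, Prdm1 and Tnf underneath; the highest point, at 7.26, is Hif3a, whose vehicle libraries were all at 0, and the lowest called point, at -3.80, is Tnfsf14.

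Among genes of at least 5 CPM in a group, the 10 highest log2 fold changes were those of Amica1, Ddit4, Socs2, Fkbp5, Zbtb16, Icosl, Strip2, Il15ra, Tagap and Arl4d. Amica1, which encodes the junctional adhesion protein JAML of leukocytes, had 0.378, 0.422 and 0.43 CPM with vehicle and 25.8, 18.0 and 13.8 CPM with Dex. Its log2 fold change was 5.53 ± 0.45 (adjusted p = 3.02e-11). Ddit4 (chr10:59949669-59951834, minus strand), an inhibitor of the growth kinase complex mTORC1, had 2.77, 1.79 and 1.4 CPM with vehicle and 73.1, 69.1 and 74.3 CPM with Dex. For both genes every Dex library lay far above every vehicle library. Over the 3 vehicle libraries Amica1 had 37 counts and Ddit4 had 182.

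Icosl (chr10:78069302-78083913, plus strand), a costimulatory ligand for T cells, had the smallest adjusted p of all genes. It had 10.2, 9.13 and 8.38 CPM with vehicle and 120, 114 and 114 CPM with Dex, a log2 fold change of 3.65 ± 0.13 (adjusted p = 5.41e-21). Il15ra, which presents interleukin 15, rose from 2.90, 4.68 and 3.62 CPM to 37.8, 39.4 and 38.4 CPM (3.37 ± 0.14). Tagap, a GTPase-activating protein of immune cells, rose by 3.31 ± 0.14, and Socs2, a feedback inhibitor of cytokine receptors, rose by 4.23 ± 0.30 on the log2 scale. The SE of these immune signalling genes was 0.30 or less, so each change was more than 10 times its error.

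Of the 34 glucocorticoid receptor targets listed, 31 were measured, and 19 were higher and 4 lower. Their median log2 fold change was 1.07, against -0.0017 over all genes, and 22 of the 23 calls held with each library left out. Fkbp5 (chr17:28399094-28517527, minus strand), a chaperone partner that restrains the receptor, had 21.3, 20.8 and 18.0 CPM with vehicle and 336, 298 and 363 CPM with Dex. Its log2 fold change was 4.05 ± 0.33 (adjusted p = 3.68e-11). Tsc22d3 (GILZ, chrX:140539528-140600659, minus strand), which mediates anti-inflammatory actions of glucocorticoids, was the most abundant of these. It had 230, 226 and 199 CPM with vehicle and 1933, 1813 and 1611 CPM with Dex (3.03 ± 0.21). Zbtb16 (PLZF, chr9:48654297-48836222, minus strand), a zinc-finger transcription factor, had 1.51, 0.974 and 0.86 CPM with vehicle and 15.9, 14.6 and 18.0 CPM with Dex (3.84 ± 0.22). No library of either group crossed into the range of the other for any of these genes.

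Ddit4, described above, is also a listed target. Per1, a clock repressor, rose by 2.36 ± 0.17 on the log2 scale, Klf9 by 2.16 ± 0.18, and Dusp1, the phosphatase that switches off p38 and JNK kinases, by 2.10 ± 0.22. Glul (glutamine synthetase) rose by 1.77 ± 0.12 and Tiparp, an ADP-ribosyltransferase, by 1.78 ± 0.13. The metallothioneins Mt2 and Mt1, which bind zinc and copper, rose by 1.55 ± 0.29 and 0.94 ± 0.21. Hif3a, a hypoxia-inducible factor subunit, had no count in the 3 vehicle libraries and 0.687, 0.473 and 0.969 CPM with Dex, which is at least 21.4-fold higher when the vehicle group is set at a floor of 3 counts over its libraries. The list median was the same, 1.07, with Hif3a at that bound.

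The 4 listed targets that fell were Angptl4, Bcl6, Rgs2 and Acsl1. Angptl4, a secreted inhibitor of lipoprotein lipase, fell from 6.50, 4.58 and 6.27 CPM to 1.33, 1.67 and 1.58 CPM, a log2 fold change of -1.90 ± 0.27. Bcl6, a transcriptional repressor, fell by 1.06 ± 0.17, and Rgs2, which restrains G protein signalling, by 0.64 ± 0.13. The call of Acsl1, a fatty acid activating enzyme (log2 fold change -0.33), held only in the fit without Dex replicate 3, and in the others its value ran from -0.37 to -0.26. The 8 uncalled members included Anxa1, an anti-inflammatory phospholipid-binding protein, at -0.03 ± 0.14.

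**Figure D2:**
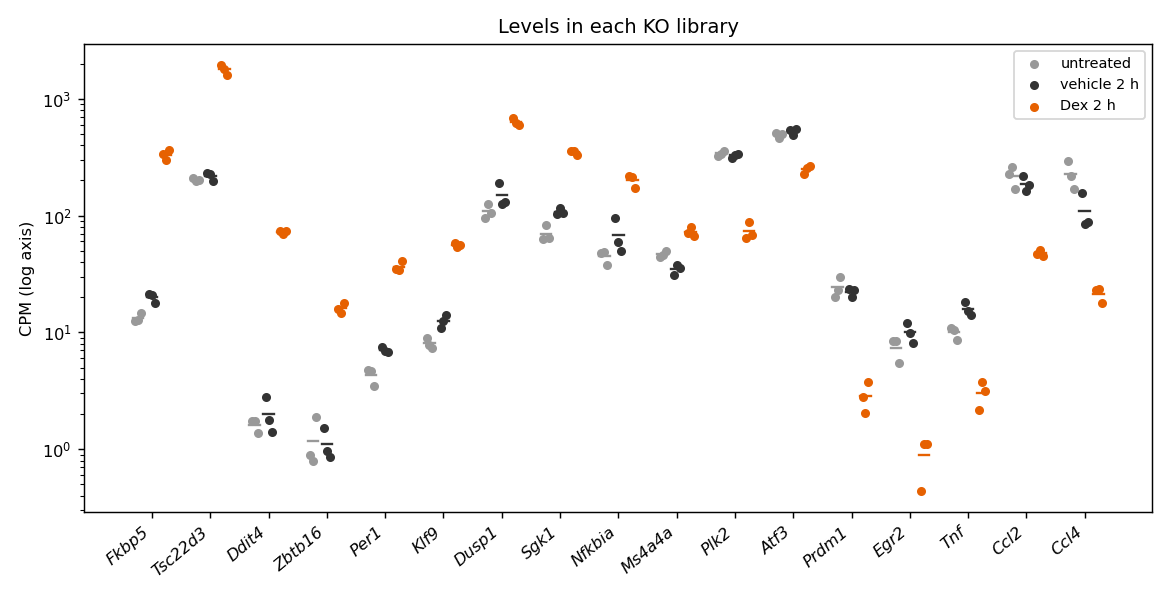
Level of 17 named genes in each KO library, in CPM on a log axis, for untreated (grey), vehicle 2 h (black) and Dex 2 h (orange) groups of 3 libraries; points from left to right are replicates 1 to 3 and bars are means. Orange points lie above both other groups for the genes from Fkbp5 to Ms4a4a and under them from Plk2 to Ccl4.

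Of 21 measured genes for the receptor, its chaperones and its cofactors, 2 were lower and none higher (9.52% called, against 10.4% of all genes, median -0.0117), and neither call held in all 6 fits without a library. Nr3c1, which encodes the glucocorticoid receptor, had 105, 99.9 and 95.6 CPM with vehicle and 83.6, 73.8 and 84.2 CPM with Dex. Its log2 fold change was -0.32 ± 0.08 (adjusted p = 0.00877, edgeR). The call was lost without Dex replicate 2 (-0.26, adjusted p = 0.0885) and without vehicle replicate 1 (-0.28, adjusted p = 0.05955). The other was Ncoa3, a coactivator (-0.42 ± 0.12), whose call was lost without Dex replicates 1 or 2 or vehicle replicate 1 (values from -0.43 to -0.34).

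The sequences that follow show where elements resembling the receptor's binding site lie in the promoters of genes that moved. Promoters from RefSeq (GRCm38.p6, from 250 bases before to 50 after the start) were available for 8592 of the 11160 genes, with 11007 promoters. On both strands, the palindromic core ACANNNTGT was in 4.13% of all promoters, 5.53% of those of higher genes and 2.57% of those of lower genes. Among genes changed over 2-fold it was in 6.03% of promoters of higher and 5.56% of promoters of lower genes. The shorter element TGTTCT, which the full element holds on both strands, was in 12.5%, 13.3% and 9.08%. The full element, AGAACA and TGTTCT in that order with a gap of 3 bases, was in 1 of the 11007 promoters (0.00909%). That promoter belongs to Sgk1, a salt- and stress-regulated kinase, at chr10:21993701-21993715 and 189 bases before 1 of the 6 starts listed for the gene. The 250 bases before that start (chr10:21993640-21993889, plus strand) are given with the element in capitals.
Sgk1: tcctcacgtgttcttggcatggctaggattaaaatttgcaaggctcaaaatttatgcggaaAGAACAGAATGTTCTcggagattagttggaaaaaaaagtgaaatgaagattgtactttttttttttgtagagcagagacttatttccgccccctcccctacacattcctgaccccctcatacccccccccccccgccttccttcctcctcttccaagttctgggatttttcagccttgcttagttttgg

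Sgk1 had 102, 116 and 106 CPM with vehicle and 355, 355 and 332 CPM with Dex, a log2 fold change of 1.68 ± 0.25 (adjusted p = 6.49e-06). The core alone was found in the promoters of Glul (chr1:153899894-153899922, plus strand, core 25 bases before the start), Mt1 (chr8:94178987-94179015, plus strand, 92 bases before) and the family member Ms4a6c (chr19:11469367-11469395, plus strand, 10 bases after). These 3 genes rose. It was also in that of Zc3h12d (chr10:7832325-7832353, plus strand, 135 bases before), an RNA decay factor that fell. Among the other named genes, the core was also in a promoter of Bcl2l1, which rose, and of S100a8, Ctsk, Ctss and Gbp3, which were not called. The 29 bases around each are shown with the core in capitals.
Glul: gggggcgggcACAAGCTGTcaataaaaag
Mt1: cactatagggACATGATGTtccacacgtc
Ms4a6c: gtaacagtccACAGCCTGTaagcaccact
Zc3h12d: tctctttaacACAAAGTGTaagtaccttt

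A match is a description of the letters and not evidence of binding, and the promoter windows of Fkbp5, Per1, Dusp1 and Ddit4 held neither the core nor the shorter element. A promoter of Tsc22d3 held the shorter element, 185 bases before the start. The AP-1 motif TGANTCA and the kB motif (GGGA, any base, then TTTCC), both added after the data were seen, were in 5.12% and 0.454% of all promoters, 7.94% and 0.709% of those of higher genes, and 4.11% and 1.20% of those of lower genes.

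Immediate early genes, which answer fast to growth factor and stress signals, were mostly lower with Dex than with vehicle. Of 27 measured, 14 were lower and 2 higher (median -0.55), and 10 of the 14 falls held with each library left out. Egr2 (chr10:67535475-67542188, plus strand), a zinc-finger transcription factor, had 12.1, 9.97 and 8.17 CPM with vehicle and 0.442, 1.10 and 1.11 CPM with Dex. Its log2 fold change of -3.44 ± 0.36 was the largest fall among genes of at least 5 CPM. Plk2, a stress-responsive kinase, had 311, 330 and 340 CPM with vehicle and 64.8, 88.0 and 68.1 CPM with Dex (-2.15 ± 0.15). Atf3, a stress-induced repressor, fell by 1.07 ± 0.09, Ier3 by 1.87 ± 0.17 and Ier5 by 1.16 ± 0.10. The AP-1 subunits Jun and Junb fell by 0.68 ± 0.09 and 0.93 ± 0.12. Their partner Fos was higher (184, 135 and 138 CPM with vehicle, 271, 172 and 243 CPM with Dex, 0.59 ± 0.17), with overlap between the groups. Its adjusted p of 0.0154 (edgeR) became 0.154 without Dex replicate 1, 0.0511 without Dex replicate 3, 0.102 without vehicle replicate 2 and 0.0855 without vehicle replicate 3. A fall against vehicle need not be a fall against untreated cells. Junb averaged 78.4 CPM in untreated KO libraries, 140 with vehicle and 73.8 with Dex, so its Dex level was near the untreated one. Jun averaged 173, 187 and 117 CPM and Plk2 341, 327 and 73.6 CPM in these groups, so both lay under untreated.

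Transcriptional repressors divided. Of 19 measured, 6 were lower and 2 higher (median -0.42), and all 8 calls held with each library left out. With the replicate block, 10 were lower and 2 higher. Prdm1 (BLIMP-1, chr10:44437177-44528501, minus strand) had 23.5, 20.2 and 23.1 CPM with vehicle and 2.80, 2.05 and 3.73 CPM with Dex, a fall of 2.97 ± 0.21 on the log2 scale (adjusted p = 3.51e-13). Zeb2 fell by 0.97 ± 0.11 and Tgif1, a brake on TGF-beta targets, by 0.91 ± 0.09. The higher 2 were Zbtb16 and Nfil3, which rose by 2.21 ± 0.16. Of 11 Kruppel-like factors, 4 were higher, 1 lower and 6 not called (median 0.17), and all 5 calls held. Klf4 and Klf2, which restrain inflammatory genes in myeloid cells, rose by 2.01 ± 0.23 and 1.55 ± 0.18, and Klf10 fell by 0.61 ± 0.10. Klf10 averaged 88.3 CPM in untreated KO libraries, 144 with vehicle and 94.1 with Dex.

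Kinase brakes moved in both directions. Of 20 MAP kinase phosphatases and Ras feedback genes, 4 were higher and 6 lower (median -0.20), and 8 of the 10 calls held. Besides Dusp1, the ERK phosphatase Dusp6 rose, from 35.9, 33.2 and 30.4 CPM to 71.8, 56.5 and 53.5 CPM (0.87 ± 0.21), and the receptor inhibitor Errfi1 rose by 1.04 ± 0.24. The phosphatases Dusp4, Dusp5 and Dusp7 fell by 1.64 ± 0.24, 1.62 ± 0.26 and 0.94 ± 0.11. Dusp5 averaged 6.80 CPM in untreated KO libraries, 17.6 with vehicle and 5.77 with Dex, so its Dex level was near the untreated one. Dusp4 averaged 13.7, 17.5 and 5.55 CPM and Dusp7 104, 103 and 53.7 CPM in these groups, so both lay under untreated. Of 28 genes of mTORC1 brakes and insulin signalling, 5 were higher and 1 lower (21.4% called, median 0.0289), and all 5 rises held. With the replicate block, 5 were higher and 3 lower. Besides Ddit4 they included Pik3ip1, an inhibitor of PI3 kinase (2.49 ± 0.12), its regulatory subunit Pik3r1 (1.07 ± 0.15) and the stress sensor Sesn1 (0.89 ± 0.09).

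Feedback genes of NF-kB and of mRNA decay also divided by member. Of 32 NF-kB subunits and feedback genes, 3 were higher and 7 lower (median -0.0680), and 5 of the 10 calls held. Nfkbia, the inhibitor IkB-alpha, had 94.6, 59.5 and 50.2 CPM with vehicle and 219, 214 and 172 CPM with Dex (1.57 ± 0.18), and Birc3, an inhibitor of cell death, rose by 1.02 ± 0.12. Bcl3, an atypical IkB protein, fell from 34.1, 27.1 and 22.3 CPM to 12.9, 11.6 and 12.7 CPM (-1.17 ± 0.12), and Nfkbid and Relb fell by 0.92 ± 0.14 and 0.72 ± 0.15. Untreated KO means were 15.5 CPM for Bcl3 and 16.2 CPM for Relb, against Dex means of 12.4 and 14.2 CPM. Of 13 mRNA decay factors, 4 were higher and 2 lower (median 0.0615), and 5 of the 6 calls held. Zc3h12a (regnase-1), which degrades cytokine transcripts, rose by 1.84 ± 0.14 and Zfp36l2 by 0.64 ± 0.10, while Zc3h12d fell by 1.12 ± 0.11.

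Cytokines and chemokines moved only downward where they were called. Of 18 measured cytokines, 6 were lower and none higher (median -0.25), and 5 of the 6 calls held. The replicate block gave 7 lower. Tnf (chr17:35199381-35202007, minus strand), a central inflammatory cytokine, had 18.2, 15.3 and 14 CPM with vehicle and 2.16, 3.75 and 3.16 CPM with Dex, a fall of 2.37 ± 0.19 on the log2 scale (adjusted p = 1.12e-11). Vegfa, the vascular growth factor, fell by 1.28 ± 0.21 and Csf1, the ligand of the M-CSF receptor, by 0.83 ± 0.15. Tnfsf14 (LIGHT), at 1.61, 1.33 and 1.36 CPM with vehicle and 0, 0.126 and 0.144 CPM with Dex, was near the detection limit. Il1b was low and its groups overlapped (4.64, 1.27 and 0.895 CPM with vehicle, 0.933, 0.315 and 0.754 CPM with Dex, -1.82 ± 0.57). Its adjusted p of 0.0330 (edgeR) became 0.541 without vehicle replicate 1, where the value was -0.75, and 0.204 and 0.0566 without Dex replicates 2 and 3.

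Of 20 chemokines, 4 were lower and none higher (20.0% called, against 10.4% of all genes, median 0.0225). All 4 calls held with each library left out. Ccl4 (chr11:83662584-83664683, plus strand), which draws monocytes and lymphocytes, had 156, 85.3 and 88.9 CPM with vehicle and 23.0, 23.5 and 17.7 CPM with Dex (-2.36 ± 0.27). The monocyte attractants Ccl7 and Ccl2 fell by 2.21 ± 0.53 and 1.97 ± 0.46. Ccl2 (chr11:82035571-82037453, plus strand) had 218, 163 and 181 CPM with vehicle and 47.2, 50.6 and 45.2 CPM with Dex, with a wide gap between the groups. Ccl3 fell by 1.36 ± 0.20. The other 16 members had no call, while the replicate block gave 6 lower chemokines. Without both libraries numbered 1, Ccl2 and Ccl7 lost their calls (-1.84 and -2.03, adjusted p = 0.0544 and 0.0750, edgeR).

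**Figure D3:**
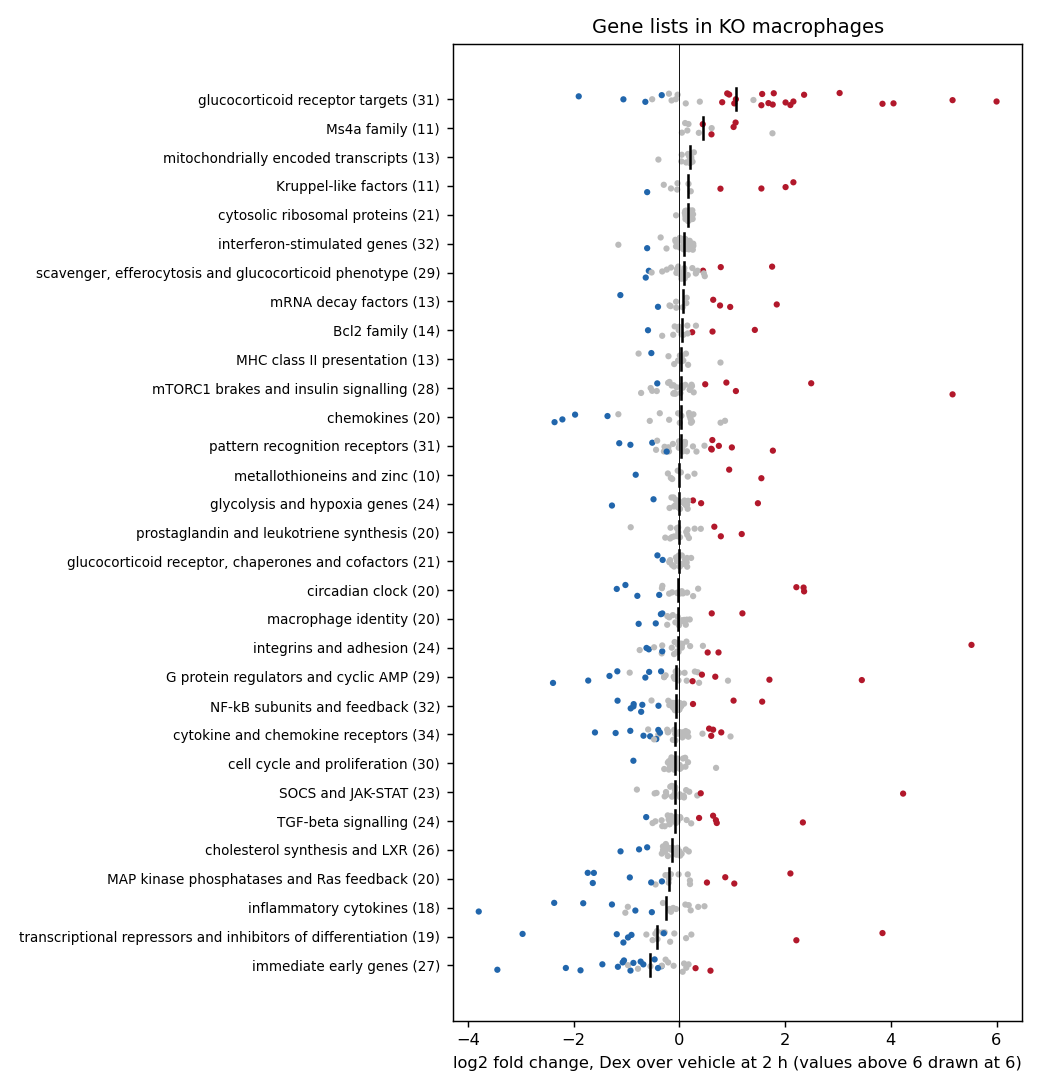
Log2 fold change of Dex over vehicle at 2 h for the measured members of 31 gene lists (number measured in brackets), with called members in red (higher) or blue (lower), uncalled in grey and a black bar at the list median. Glucocorticoid receptor targets have the highest median (1.07) and immediate early genes the lowest (-0.55), while most other medians lie near 0.

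Receptors changed in both directions. Of 34 cytokine and chemokine receptors, 4 were higher and 8 lower (median -0.0764), and 6 of the 12 calls held. The replicate block gave 5 higher and 10 lower. The 2 chains of the interferon gamma receptor moved apart: Ifngr1 rose from 194, 160 and 169 CPM to 289, 252 and 253 CPM (0.60 ± 0.09), and Ifngr2 fell from 216, 173 and 189 CPM to 141, 121 and 131 CPM (-0.55 ± 0.07). Il21r, the interleukin 21 receptor, fell by 1.21 ± 0.17. Of 23 SOCS and JAK-STAT genes only Socs2 and Pias1 were called, both higher (median -0.0850), and both calls held. Of 31 pattern recognition receptors and adaptors, 6 were higher and 4 lower (median 0.0207), and 7 of the 10 calls held. The replicate block gave 8 higher and 5 lower. The endosomal RNA sensors Tlr7 and Tlr8 rose by 0.99 ± 0.12 and 0.75 ± 0.14, the flagellin receptor Tlr5 by 1.77 ± 0.31, and the inflammasome sensor Nlrp3 fell by 0.93 ± 0.11.

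Genes of G protein signalling moved in both directions. Of 29 measured, 5 were higher and 7 lower (median -0.0563), and 8 of the 12 calls held. Adrb1, an adrenergic receptor, rose from 0.158, 0.422 and 0.43 CPM to 4.32, 2.93 and 3.88 CPM (3.45 ± 0.38). S1pr1, the receptor for sphingosine phosphate, fell by 1.17 ± 0.18. Of 20 prostaglandin and leukotriene genes, 3 were higher (median -0.0055), and the call of the E2 receptor Ptger2 (1.18 ± 0.15) held with each library left out. With the replicate number as a block, 5 of these 20 were higher and 1 lower.

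Of 29 measured genes of the scavenging phenotype, 3 were higher and 2 lower (17.2% called, against 10.4% of all genes, median 0.0785), and 3 of the 5 calls held. With the replicate block, 7 were higher and 2 lower, of 28 measured. Mertk, a receptor for dying cells, had 83.4, 88.7 and 95.4 CPM with vehicle and 158, 136 and 166 CPM with Dex (0.78 ± 0.13). Cd163, the haemoglobin scavenger receptor, rose from 1.77, 1.20 and 1.29 CPM to 5.35, 4.91 and 4.20 CPM (1.75 ± 0.33). Slc40a1, the iron exporter ferroportin, fell from 1119, 961 and 1063 CPM to 678, 637 and 706 CPM (-0.64 ± 0.13). For these 3 genes the Dex and vehicle libraries did not overlap.

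In the Ms4a family, 4 of 11 measured members were higher and none lower (median 0.44), and 3 of the 4 calls held. Besides Ms4a4a these were Ms4a6b (253, 212 and 273 CPM with vehicle, 536, 474 and 493 CPM with Dex, 1.02 ± 0.16), Ms4a6c (0.61 ± 0.15) and Ms4a6d (0.44 ± 0.13). The call of Ms4a6d was lost without Dex replicates 1 or 2 or vehicle replicates 1 or 2 (values from 0.39 to 0.46). The estimated counts of such close relatives depend on how shared reads were divided, so their separate values are uncertain. Of 20 macrophage identity genes, 2 were higher and 4 lower (median -0.0204), and 5 of the 6 calls held. The transcription factor Maf rose by 1.19 ± 0.17. Spi1 (PU.1), the lineage factor of myeloid cells, fell by 0.35 ± 0.07.

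Of 24 TGF-beta genes, 5 were higher and 1 lower (25.0% called, median -0.0913), and 5 of the 6 calls held. With the replicate block, 5 were higher and 3 lower. They were led by the ligand Tgfb3 (2.34 ± 0.37). Of 20 clock genes, 3 were higher and 4 lower (median -0.0183), and 5 of the 7 calls held. Ciart, a repressor, was at 2.35 ± 0.26 and the repressors Bhlhe40 and Bhlhe41 at -1.19 ± 0.26 and -1.02 ± 0.16. Bhlhe40 averaged 35.3 CPM in untreated KO libraries, 105 with vehicle and 46.0 with Dex, so its Dex mean was under vehicle and over untreated. Of 14 Bcl2 family genes, 3 were higher and 1 lower (median 0.0567), and 3 of the 4 calls held, including the cell death inhibitor Bcl2l1 (0.63 ± 0.10), the cell death activator Bmf (1.43 ± 0.25) and Bcl2l11 (-0.59 ± 0.14). Of 24 glycolysis and hypoxia genes, 3 were higher and 2 lower (20.8% called, median -0.0027). Of these 5 calls 4 held, with the glycolytic regulator Pfkfb3 at 1.48 ± 0.13. Of 24 integrin and adhesion genes, 3 were higher and 3 lower (25.0% called, median -0.0221). Of these 6 calls 3 held, with the fibronectin receptor subunit Itga5 at 0.74 ± 0.09. Of 10 metallothionein and zinc genes, 2 were higher and 1 lower (median -0.0021), and all 3 calls held, the last being the zinc exporter Slc30a1 (-0.83 ± 0.13).

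Of 26 cholesterol genes, 3 were lower (11.5% called, against 10.4% of all genes, median -0.1484). Of these calls 1 held, that of Mylip, which degrades the LDL receptor (-1.11 ± 0.12). The replicate block gave 4 lower cholesterol genes. Only 1 of 32 interferon-stimulated genes (Irf1, -0.61 ± 0.14), 1 of 13 genes listed under MHC class II presentation (Cd274, -0.53 ± 0.13) and 1 of 30 cell cycle genes (Myc, -0.87 ± 0.25) were called, all lower, with medians of 0.0845, 0.0354 and -0.0829. These shares lie under the 10.4% of all genes. With the replicate block, 2 interferon-stimulated genes were lower, and the costimulatory receptor Cd40 of the class II list was higher beside the lower Cd274. Cd274 is an immune checkpoint ligand, and the class II genes of that list were themselves not called in either fit. The call of Cd274 was lost without Dex replicate 1 (-0.47, adjusted p = 0.0576), and that of Myc without any 1 Dex library or vehicle replicate 1 (values from -0.88 to -0.79, adjusted p at most 0.0831). None of 13 mitochondrially encoded transcripts and 21 ribosomal protein genes was called, and their medians were 0.1955 and 0.1716. Of the markers of other cells, Kdr (VEGF receptor) of endothelium was lower (18.4, 16 and 17.8 CPM with vehicle, 10.4, 7.06 and 12.1 CPM with Dex) and the other endothelial marker measured, Pecam1, was uncalled. Both summed to 19.5 to 22.2 CPM with vehicle and 10.1 to 15 CPM with Dex, and the part of endothelial RNA in the results was not tested. The call of Kdr was lost without Dex replicate 2 (-0.63, adjusted p = 0.0958).

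The response at 2 h was set beside that at 8 h in the same genotype to see which early changes grew or shrank. The difference of the 2 effects was called for 2070 genes (18.5%), 1145 upward (10.3%) and 925 downward (8.29%). The upward majority turned with DESeq2 (1135 and 1167), median-of-ratios scaling (1020 and 1051), the compared groups alone (954 and 1010) and the replicate block (1423 and 1523), and without Dex replicates 1 or 2 or vehicle replicate 2 at 2 h (875 and 895, 833 and 896, 796 and 825). The 2 h libraries enter both the 2 h call and this difference, so the counts that follow are a description. Of the 642 genes higher at 2 h, the difference was not called in 392, 201 lay further from vehicle at 8 h, and 49 lay towards or past it. Of the 520 lower genes the numbers were 351, 57 and 112, which is 11% further and 21.5% back, against 31.3% and 7.63% of the higher genes. Among genes not called at 2 h the shares were 7.86% and 8.65%. Higher genes going further and lower genes going back are both upward differences, whose majority turned with the alternatives above. The split is given for the main fit only.

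Fkbp5 grew from a log2 fold change of 4.05 at 2 h to 6.16 at 8 h, where Dex libraries held 1156, 997 and 1045 CPM (difference 2.11 ± 0.43, adjusted p = 0.000625, edgeR). Ms4a4a grew from 1.06 to 3.76, with 368, 424 and 379 CPM at 8 h with Dex against 24.2, 27.5 and 35.0 CPM with vehicle (difference 2.69 ± 0.31). Across the Ms4a family, 5 of 11 members had a called upward difference and none a downward one. Icosl, Tagap and Tiparp shrank, from 3.65 to 2.79, from 3.31 to 2.07 and from 1.78 to 0.87. For Ddit4, Tsc22d3 and Dusp1 the difference was not called (1.06 ± 0.52, 0.70 ± 0.27 and 0.67 ± 0.30).

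Some genes crossed to the other side of vehicle, chosen here after their values were seen. Dusp6 went from 0.87 to -0.81, with 25.5, 26.3 and 30.2 CPM at 8 h with Dex against 46.4, 47.4 and 49.6 CPM with vehicle. Amd1, an enzyme of polyamine synthesis, went from 1.07 to -0.61 and Gpr183, a receptor for oxysterols, from 0.68 to -0.67. Bcl3 went from -1.17 to 0.52, with 26.5, 22.6 and 22 CPM at 8 h with Dex against 15.2, 17.4 and 17.1 CPM with vehicle. From 2 h to 8 h the vehicle mean also moved, from 27.8 to 16.6 CPM for Bcl3 and from 33.2 to 47.8 CPM for Dusp6. Their Dex means went from 12.4 to 23.7 CPM and from 60.6 to 27.3 CPM. For Amd1 and Gpr183 the vehicle means went from 74.4 to 80.7 CPM and from 36.1 to 45.4 CPM. Junb and Sesn1 were near vehicle at 8 h (0.09 and 0.12), as was Stk40, a kinase-related protein, which went from -1.10 to 0.01. Junb averaged 140 CPM with vehicle and 73.8 with Dex at 2 h, and 86.5 and 92.4 at 8 h. Stk40 averaged 36.0 and 16.8 CPM at 2 h, and 20.6 and 20.8 at 8 h. For Junb and Stk40 the vehicle level thus fell between the times while the Dex level rose.

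**Figure D4:**
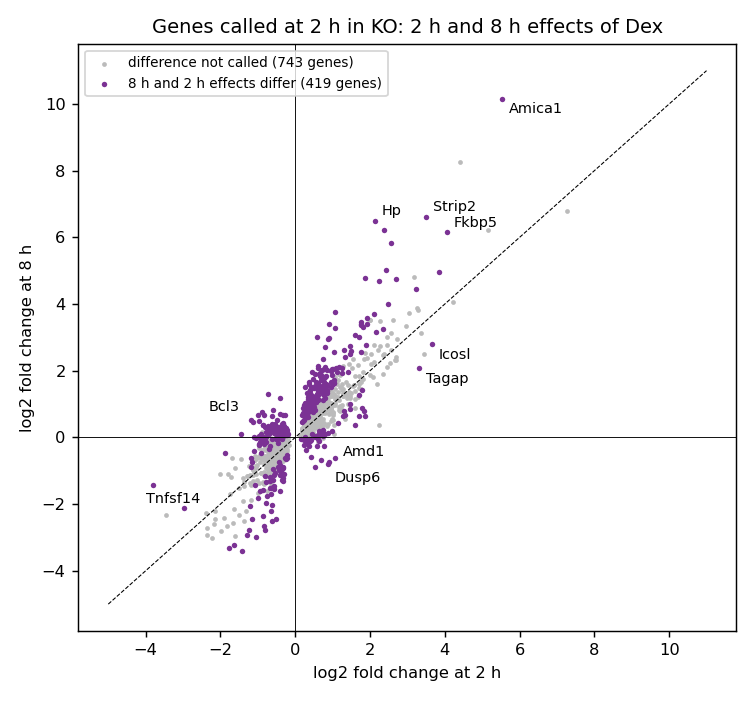
Log2 fold change of Dex over vehicle at 8 h (vertical axis) against 2 h (horizontal axis) in the KO, for the 1162 genes called at 2 h, 1 point a gene; purple points have a called difference between the times and the dashed line marks equal effects. Amica1 and Fkbp5 lie above the line, Icosl and Tagap under it, and Dusp6, Amd1 and Bcl3 lie across 0.

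The same contrast in WT cells showed whether the KO answered Dex differently. In WT, 998 genes were called (8.94%), 649 higher (5.82%) and 349 lower (3.13%). A larger count in one genotype does not show a difference, which was tested directly as the KO effect minus the WT effect over 4 groups that share no library. No gene was called in that test (0 of 11160, 0%; smallest adjusted p = 0.547, edgeR), while 985 genes had an unadjusted p under 0.05. By DESeq2 the count was also 0, and 1057 genes had such an unadjusted p. The median SE of the difference was 0.166 on the log2 scale, so small differences would not have been detectable. Without KO Dex replicate 3, the lowest library on the second component, 7 genes were called, all with a lower effect in the KO: Acot11, Chaf1a, Itpr3, Kdm2a, Lemd3, Pold1 and Rrp12. Their differences ran from -1.29 (Itpr3) to -0.65 (Lemd3), each with an adjusted p of 0.0256.

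The leading genes had these values side by side, with none of the differences called. Icosl rose by 3.65 in the KO and 3.66 in WT, Il15ra by 3.37 and 3.36, Klf9 by 2.16 in both, and Ddit4 by 5.17 and 5.31. Tnf had a log2 fold change of -2.37 in the KO and -2.06 in WT, Ccl4 of -2.36 and -2.31, and Prdm1 of -2.97 and -2.85. Ms4a4a itself was at 1.06 ± 0.22 in the KO and 0.45 ± 0.21 in WT, where it had no call. The difference of 0.61 ± 0.30 (adjusted p = 0.547, edgeR) was not called. The 3 lowest p-values of the difference were those of Ints5, an Integrator complex subunit (-0.57 ± 0.14), Pold1, a DNA polymerase subunit (-0.69), and Dis3l, an RNA exonuclease (-0.38). For Ints5 the effect was -0.35 in the KO and 0.22 in WT, with 26.3, 29.6 and 27.8 CPM with vehicle and 21.7, 22.4 and 21.5 CPM with Dex in the KO.

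**Figure D5:**
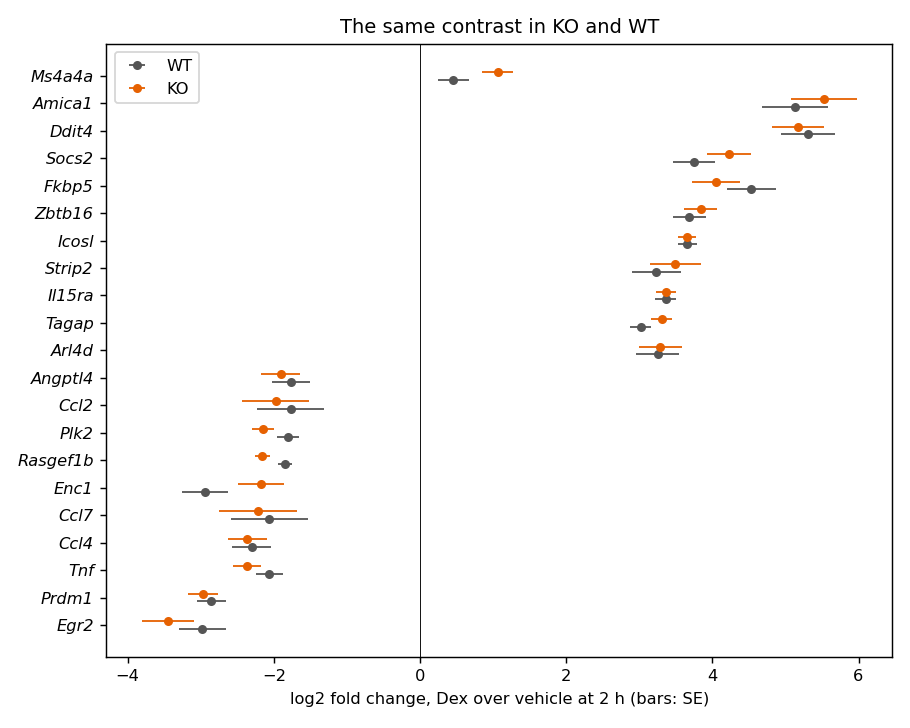
Log2 fold change of Dex over vehicle at 2 h in KO (orange) and WT (grey) macrophages, for the 10 highest and 10 lowest named genes and Ms4a4a. Bars are SE from the model of all 42 libraries, with 3 libraries a group. For each gene drawn the values of both genotypes lie on the same side of 0, and none of the differences between them was called.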

How the data were processed

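The authors deposited expected counts per gene symbol for 42 libraries made with an mRNA kit, and 69.5% of the values lie within 0.01 of a whole number. The tools fastp, HISAT2 and Salmon and the build GRCm38 are named, per the submitters' processing notes, which give no version. Neither the annotation nor the strand setting nor the gene filter is given in the sources used here, and genes overlapping on opposite strands and close paralogs are therefore uncertain. Every gene had at least 256 counts in all, and list members outside the table were not analysed here.

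Counts were rounded and fitted in edgeR 4.0.16 (R 4.3.3, limma 3.58.1) with TMM scaling and the robust quasi-likelihood F test. One model of 14 group means over 42 libraries had 28 residual degrees of freedom. Genes were called at a Benjamini-Hochberg adjusted p under 0.05 over 11160 genes. CPM are TMM-scaled, a fold change uses a prior count of 0.125, and an SE is the fold change divided by the square root of F. The filter on low counts removed 0 genes. Alternatives were DESeq2 1.42.0, its median-of-ratios scaling, a minimum mean of 5 CPM, no filter, a prior count of 0.5, the compared groups alone, the replicate number as a block and each library left out. The 2 libraries numbered 1 were also left out together, chosen after the data were seen. On simulated counts for the KO contrast at 2 h with 11160 genes, 68.7%, 86.6% and 95.5% of genes changed 1.5-, 2- and 3-fold were recovered, with 3 false calls. These counts were drawn independently, with 1 mean a gene over all groups for unchanged genes. They held no tie between same-numbered libraries and no library apart, so the rates need not hold for the real data.

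Replicates within a group differed beyond counting noise (chi-square of 11.3 to 47.1 per gene). Deviations of same-numbered Dex and vehicle libraries of the KO at 2 h correlated at 0.484, 0.122 and 0.177 across genes. Each exceeded 0.1, so a fit with the number as a block was run. That rule does not establish that the numbers pair the samples. Dex replicate 3 correlated with vehicle replicate 2 at 0.288, above the same-numbered pairs of replicates 2 and 3. The other unlike-numbered KO pairs ran from -0.441 to -0.017. In WT at 2 h, Dex replicate 3 stood at 0.338 with vehicle replicate 2 and at 0.301 with vehicle replicate 3. The WT libraries numbered 2 stood at 0.067. The values reported, with their p-values and SE, are from the model without the block and take no account of any pairing. The blocked fit is an alternative. The labels do not state what a number shares.

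The comparison and the 41 gene lists, including the markers of other cells, were chosen with earlier results of these data known. Genes named were 14 chosen by name, the 10 highest and 10 lowest called changes (5 CPM in a group, no overlap), up to 4 members with the lowest p in each list, and the 5 highest and lowest called differences between times. Other genes named, among them Sgk1, Tiparp, Hif3a, Jun, Junb, Fos, Dusp6, Errfi1, Relb, Tlr8, Acsl1, Anxa1 and the genes that returned or turned by 8 h, were chosen after their values were seen. Coordinates are from GENCODE M21 (GRCm38), where 96.3% of symbols had 1 place. Some genes that the rule names are not reported here.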

Additional observations from a re-analysis of the deposited data

Results flagged for a closer look

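The effect of Dex in the KO differed between 8 h and 2 h in 2070 genes by a test of the difference itself (edgeR, adjusted p under 0.05). Among genes of at least 5 CPM in a group, the 5 highest differences on the log2 scale were Angptl7 (6.60), Amica1 (4.63), Hp, which encodes haptoglobin (4.37), Cyp2ab1 (4.21) and the growth factor receptor Flt3 (3.86). Hp had 4.81, 4.19 and 3.63 CPM with Dex at 2 h and 130, 77.9 and 92.0 CPM at 8 h, with vehicle libraries at or under 1.56 CPM at both times. Angptl7, Cyp2ab1 and Flt3 were not called at 2 h. Flt3 is also among the dendritic cell markers given above. Angptl7 had at most 0.736 CPM with Dex at 2 h and 28, 19.1 and 16.1 CPM at 8 h. Cyp2ab1 lost the call of its difference without vehicle replicate 2 of the 2 h group (4.19, adjusted p = 0.0518) and without its replicate 3 (3.60, adjusted p = 0.141).

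Of the 5 lowest differences, 4 are given here: Cd276, an immune checkpoint ligand (-3.36), the receptor Gpr176 (-2.41), the interferon-stimulated Ifit1 (-2.37) and Cd200, a ligand that quiets myeloid cells (-2.27). None of these 4 was called at 2 h. Gpr176 had 16.7, 11.4 and 19.3 CPM with Dex at 2 h and 2.17, 3.80 and 3.57 CPM at 8 h, against 20.7, 17.0 and 23.0 CPM with vehicle at 8 h. Ifit1 lost the call of its difference with the replicate block (-2.22, adjusted p = 0.0773) and with the compared groups alone (-2.40, adjusted p = 0.0574).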

How the results depend on the processing

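For Dex against vehicle at 2 h in the KO, the count of 1162 was 1269 with DESeq2, 1146 with median-of-ratios scaling, 1060 with a mean of at least 5 CPM and 833 with the compared groups alone, and the same 1162 with no filter and with a prior count of 0.5. With the replicate number as a block it was 1105 (941 shared), and without both libraries numbered 1 it was 711 (702 shared). Leaving out 1 library gave 845 to 1370. For the KO effect minus the WT effect, the replicate block called 0 genes, with 1404 at an unadjusted p under 0.05. Ms4a4a then had a difference of 0.62 (adjusted p = 0.383, edgeR). Leaving out 1 library gave 0 to 7, the 7 without KO Dex replicate 3. The cause was not tested. The difference between 8 h and 2 h gave 2302 with DESeq2, 2946 with the replicate block and 1596 to 2098 without 1 library. WT gave 748 to 995 without 1 library and 1166 with the block. Of 165 named and called genes, all 165 kept their call with DESeq2 and 142 with the compared groups alone. Without 1 library, from 137 (Dex replicate 1) to 153 (Dex replicate 3) kept it. Without both libraries numbered 1, 124 kept it. With the block 8 lost it (Dusp2, Nfkb2, Birc2, Aim2, Rgs14, Tsku, Nfe2 and Zfp281), and it changed no other of these calls. None changed sign. The median SE of 0.118 limits what 3 libraries a group can show.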
